A study of Homo sapiens with 6 samples.

Results

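The miR-103a and miR-107 arms form a small vertebrate miRNA family whose hairpins lie inside the pantothenate kinase (PANK) genes. They were taken here as the 4 mature miRNAs miR-103a-3p, miR-107, miR-103a-1-5p and miR-103a-2-5p, chosen by name from the 1000 mature miRNAs of the count table. The study sequenced small RNA from 3 libraries of HEK 293T cells in which TENT3A and TENT3B (TUT4 and TUT7) are both knocked out, called ΔTUT4/7, and from 3 libraries of wild type HEK 293T cells, with no further treatment in either strain. HEK 293T is a transformed human embryonic kidney line. The ΔTUT4/7 cells are a single strain made in another laboratory, so that any other difference between the strains is part of each fold change, and the labels call the replicates biological without saying whether they came from separate cultures. The p-values below therefore measure the spread between these libraries, which may be technical.

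TUT4 and TUT7 add uridines to the 3′ ends of RNAs. A long uridine tail marks a precursor miRNA for decay by DIS3L2, while a single uridine helps the group II precursors, which have a short 3′ overhang, to be cut by DICER. The miR-103a and miR-107 hairpins are processed from introns of genes for the enzymes that start coenzyme A synthesis, and the 3p arm is the strand usually kept by Argonaute. This arm is known for lowering DICER1 itself and for effects on insulin sensitivity through caveolin-1. The study's list of 45 group II hairpins, taken from a public miRNA gene database, holds none of the 3 hairpins mir-103a-1, mir-103a-2 and mir-107, and mature counts do not measure a precursor's overhang, so they are not called group II here.

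The 3 hairpins are shown because their arms explain which counts can be assigned to which gene. The sequences are those of RefSeq for hg38, with annotated mature arms in capitals and the rest of the hairpin in lower case.
hsa-mir-103a-1: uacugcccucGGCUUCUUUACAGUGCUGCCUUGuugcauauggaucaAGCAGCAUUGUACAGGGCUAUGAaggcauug
hsa-mir-103a-2: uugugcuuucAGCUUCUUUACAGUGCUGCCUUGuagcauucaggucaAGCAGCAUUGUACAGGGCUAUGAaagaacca
hsa-mir-107: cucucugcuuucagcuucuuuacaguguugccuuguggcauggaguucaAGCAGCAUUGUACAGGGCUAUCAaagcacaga
The mir-103a-1 hairpin lies at chr5:168560896-168560973 on the minus strand, in intron 5 of the 7-exon canonical PANK3 transcript. The mir-103a-2 hairpin lies at chr20:3917494-3917571 on the plus strand, in intron 5 of the 7-exon canonical PANK2 transcript. The mir-107 hairpin lies at chr10:89592747-89592827 on the minus strand, in intron 5 of the 7-exon canonical PANK1 transcript. The hosts thus carry their hairpin in the intron of the same number and on their own strand, in introns of 2235, 1620 and 4419 bases in PANK3, PANK2 and PANK1. Antisense hairpins named MIR103B1 and MIR103B2 are annotated across mir-103a-1 and mir-103a-2. The use of strand in counting was not given in the sources used here, and without it reads of the antisense hairpins could not be told apart from those of miR-103a.

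The mature arms are given next with the seed, bases 2 to 8, in capitals.
hsa-miR-103a-3p: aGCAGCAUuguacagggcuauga
hsa-miR-107: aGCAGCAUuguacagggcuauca
hsa-miR-103a-1-5p: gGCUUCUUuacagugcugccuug
hsa-miR-103a-2-5p: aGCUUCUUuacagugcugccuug
All 4 arms are 23 nt long. No other miRNA of the table has the seed GCAGCAU of the 3p arms or the seed GCUUCUU of the 5p arms. Counting positions from 1 at the 5′ end, the 3p arms differ only by G22C from miR-103a-3p to miR-107. The 5p arms differ only by A1G from miR-103a-2-5p to miR-103a-1-5p. No 5p arm of mir-107 is in the RefSeq table, and its 5p side, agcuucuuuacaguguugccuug, differs from miR-103a-2-5p by C16U. The authors trimmed the reads to 18 nt before alignment, and what such a read holds of the 3p arms is shown in capitals.
hsa-miR-103a-3p: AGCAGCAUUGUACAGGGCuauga
hsa-miR-107: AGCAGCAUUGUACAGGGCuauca
The first 18 nt of the 3p arms are identical, and this word has 3 exact matches in the genome, which are the 3 hairpins. A read of 18 nt from the start of a 3p arm therefore cannot be assigned to miR-103a-3p or to miR-107, and such reads measure at most the sum of the arms. The deposited counts place miR-103a-3p at its mir-103a-1 copy on chromosome 5 alone. Whether reads aligned to the mir-103a-2 copy were counted was not given in the sources used here, so the 3p counts may be partial. Which end of the reads was kept is not stated in the methods, and the start is assumed here. The first 18 nt of each 5p arm have 1 exact match in the genome, in their own hairpin, but a read distinguishes the 5p arms by its first base alone.

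The libraries had between 4338558 and 7967606 counts on the 1000 miRNAs, the largest in wild type replicate 2. Levels are given in CPM (a count divided by its library's total and scaled so that every library has the same sum). Of the 1000 miRNAs, 826 had a count above 7 in at least 1 library and entered edgeR's quasi-likelihood test, all 4 members among them. A miRNA is said to have passed at a Benjamini-Hochberg adjusted p under 0.05 over all tested miRNAs. This was the case for 23.2% of the tested miRNAs toward higher and for 21.9% toward lower values in ΔTUT4/7, and 16.5% rose by at least 2-fold. The let-7 family with miR-98, known targets of TUT4/7, made up 19.2% to 19.7% of each ΔTUT4/7 library but 5.57% to 6.36% of each wild type library, and CPM values are relative to totals that include it. A count of mature miRNAs holds no TUT4 or TUT7 transcript, so the deletion itself was not checked here.

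Of the 4 arms, miR-103a-2-5p, the minor strand of the hairpin in PANK2, passed the test and was 3.29-fold higher in ΔTUT4/7. The guide arms miR-103a-3p and miR-107 were 1.37-fold and 1.29-fold higher in the fit without passing. The rare miR-103a-1-5p, the minor strand of the hairpin in PANK3, did not pass, and its interval held changes of either direction. That 1 of 4 arms passed is to be read against the 45.2% of all tested miRNAs that passed in either direction.

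The guide arm miR-103a-3p had 57.7, 54.9 and 67.8 CPM in ΔTUT4/7 replicates 1, 2 and 3, from 293, 264 and 318 counts. In wild type replicates 1, 2 and 3 it had 53.9, 46.9 and 30.2 CPM, from 238, 374 and 131 counts. All 3 ΔTUT4/7 libraries lay above the wild type libraries, by as little as the step from 53.9 to 54.9 CPM, and wild type replicate 3 stood lowest. Such a separation in either direction was found for 58.4% of the tested miRNAs. The means were 60.2 ± 6.79 and 43.7 ± 12.2 CPM (SD, n = 3 each). The fitted log2 fold change was 0.46, its standard error 0.22 (edgeR adjusted p = 0.112). The 95% interval of the fold change ran from 0.979 to 1.93, which leaves a rise of nearly 2-fold possible. With let-7 and miR-98 taken out of the library totals, miR-103a-3p passed at 0.68 (edgeR adjusted p = 0.0249).

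**Figure D1:**
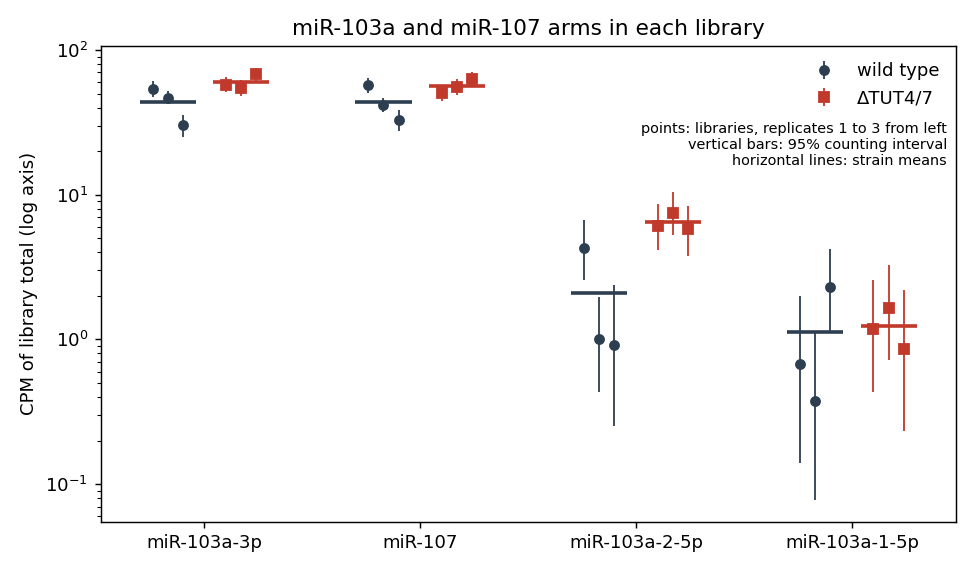
Level of the 4 arms in each library in CPM on a log axis, wild type as circles and ΔTUT4/7 as squares, replicates 1 to 3 from left in each group, with 95% exact Poisson counting intervals and a line at each strain mean. The 3p arms lie between 30.2 and 67.8 CPM in every library, miR-103a-2-5p between 0.922 and 7.49 CPM, and miR-103a-1-5p between 0.377 and 2.30 CPM.

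miR-107 had 50.7, 55.7 and 63.3 CPM in ΔTUT4/7 replicates 1, 2 and 3 and 57.1, 41.7 and 33.0 CPM in wild type replicates 1, 2 and 3. The strains overlapped, since wild type replicate 1 lay above ΔTUT4/7 replicates 1 and 2. The means were 56.6 ± 6.39 and 43.9 ± 12.2 CPM (SD, n = 3 each). The fitted log2 fold change was 0.37, its standard error 0.22 (edgeR adjusted p = 0.187) and a 95% interval of the fold change from 0.924 to 1.80. The log2 fold change was 0.59 and passed both without wild type replicate 1 (edgeR adjusted p = 0.0451) and with all 6 libraries once let-7 and miR-98 were taken out of the totals (edgeR adjusted p = 0.042).

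The sum of miR-103a-3p and miR-107 was 108, 111 and 131 CPM in ΔTUT4/7 replicates 1, 2 and 3, and in the corresponding wild type libraries 111, 88.6 and 63.2 CPM. Wild type replicate 1 lay within the range of the ΔTUT4/7 libraries, while wild type replicates 2 and 3 lay below it. A full separation toward higher values was found for 28.4% of the 813 miRNAs or sums tested when all miRNAs that share their first 18 nt were summed. The means of the sum were 117 ± 12.6 and 87.6 ± 24.0 CPM (SD, n = 3 each), and the coefficient of variation was 10.8% in ΔTUT4/7 and 27.4% in wild type cells. In that summed table the log2 fold change was 0.41 with a standard error of 0.21 (edgeR adjusted p = 0.126), a test that 44.5% of the 813 passed in either direction. The 95% interval of the fold change ran from 0.969 to 1.83. The sum passed without wild type replicate 1, at 0.62 (edgeR adjusted p = 0.0363), and with let-7 and miR-98 taken out of the library totals, at 0.64 (edgeR adjusted p = 0.0253), a scaling that moved the median over the 826 miRNAs from 0.013 to 0.23.

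The deposited table divides the sum almost evenly between its arms. The share of miR-107 was 46.7%, 50.4% and 48.3% in ΔTUT4/7 replicates 1, 2 and 3, against 51.4%, 47.0% and 52.2% in wild type replicates 1, 2 and 3. The exact 95% binomial interval, which covers counting error only, held 50% in all 6 libraries, the widest being that of wild type replicate 3, from 46.1% to 58.2% over 274 counts. The mean share was 48.5 ± 1.83% in ΔTUT4/7 and 50.2 ± 2.79% in wild type cells (SD, n = 3 each; 2-sided exact permutation test, p = 0.4, where 3 against 3 cannot go below 0.1). miR-103a-3p was above miR-107 in 3 of the 6 libraries. Other miRNAs with a common start were divided in the same way or quite unevenly. Of the 13 pairs in the table that share their first 18 nt, the more abundant member took under 55% of the pooled counts in 6 and over 95% in 5. let-7a-5p took 50.2% of its pair with let-7c-5p, and miR-103a-3p 51.1% of its pair with miR-107. In contrast, miR-23b-3p took 99.5% of its pair with miR-23a-3p. Where reads hold the shared start alone, the abundance of miR-103a-3p relative to miR-107 cannot be read from them, and the fold changes of these arms are not independent of each other.

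**Figure D2:**
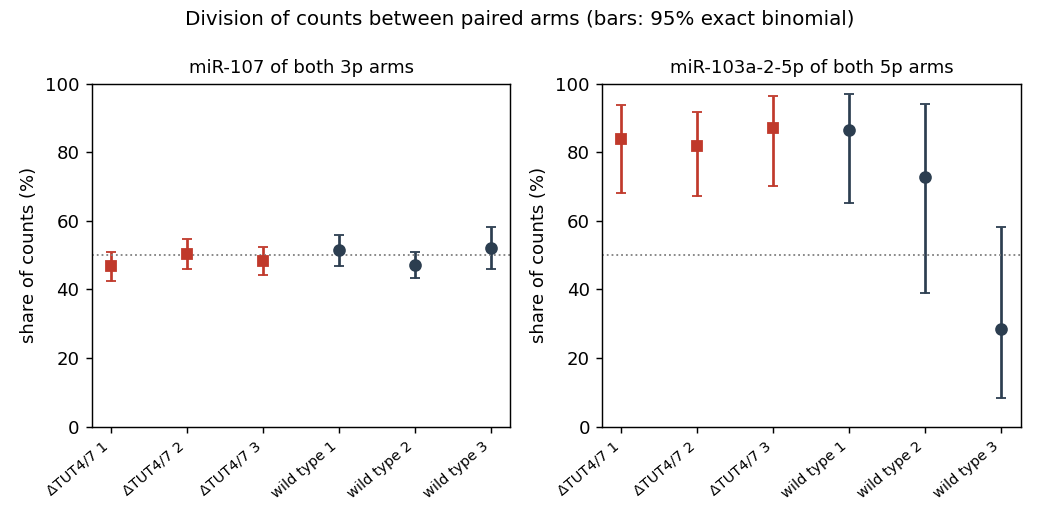
Share of counts in percent for miR-107 of the summed 3p arms (left) and for miR-103a-2-5p of the summed 5p arms (right), 1 point for each library with its exact 95% binomial interval and a dotted line at 50%. The left shares lie between 46.7% and 52.2% in all libraries, while the right shares lie between 72.7% and 87.1% except for wild type replicate 3, at 28.6%.

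miR-103a-2-5p, the arm opposite the guide in the PANK2 hairpin, had 6.11, 7.49 and 5.76 CPM in ΔTUT4/7 replicates 1, 2 and 3, from 31, 36 and 27 counts. In wild type replicates 1, 2 and 3 it had 4.31, 1.00 and 0.922 CPM, from 19, 8 and 4 counts. All ΔTUT4/7 libraries lay above all wild type libraries, and wild type replicate 1 stood well above the other wild type libraries. A separation toward higher values in ΔTUT4/7 was found for 28.8% of the tested miRNAs. The means were 6.45 ± 0.912 and 2.08 ± 1.93 CPM (SD, n = 3 each). The fitted log2 fold change was 1.72, its standard error 0.48 (edgeR adjusted p = 0.0118). The 95% interval of the fold change ran from 1.60 to 6.79. The size rested on single wild type libraries: without wild type replicate 1 the fold was 6.50, and without wild type replicate 2 it was 2.44 and no longer passed (edgeR adjusted p = 0.0645).

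miR-103a-1-5p, the arm opposite the guide in the PANK3 hairpin, had 1.18, 1.66 and 0.853 CPM in ΔTUT4/7 replicates 1, 2 and 3, from 6, 8 and 4 counts. In wild type replicates 1, 2 and 3 it had 0.680, 0.377 and 2.30 CPM, from 3, 3 and 10 counts. The strains overlapped, and the highest and the lowest value were both those of wild type libraries. The means were 1.23 ± 0.407 and 1.12 ± 1.04 CPM (SD, n = 3 each). The fitted log2 fold change was 0.27, its standard error 0.69 (edgeR adjusted p = 0.768). With 18 counts in ΔTUT4/7 and 16 in wild type cells the 95% interval of the fold change ran from 0.428 to 3.42. Neither a 2-fold fall nor a 3.29-fold rise like that of miR-103a-2-5p was thus excluded. Its fitted fold was 0.833 without wild type replicate 2 and 2.44 without wild type replicate 3 (edgeR adjusted p = 0.779 and 0.151).

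**Figure D3:**
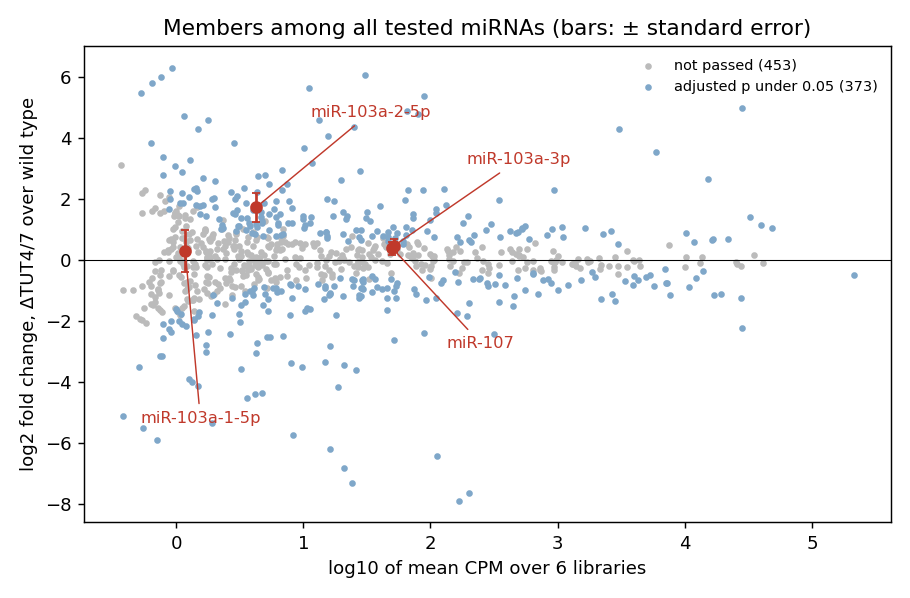
Log2 fold change of ΔTUT4/7 over wild type against log10 of the mean CPM over 6 libraries for the 826 tested miRNAs, in blue for the 373 that passed and in grey for the others, with the 4 members in red and bars of 1 standard error. miR-103a-2-5p lies at 1.72 and the other members between 0.27 and 0.46.

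The levels of the arms, all of the same length, followed the order of guide over minor strand. The rows of the 3p arms ranked between 218 and 285 of the 1000 miRNAs by CPM in the 6 libraries. Reads that hold the shared start alone do not measure these rows apart, and their sum was not ranked. The levels and ranks of the 3p arms may also lack reads aligned to the mir-103a-2 copy. miR-103a-2-5p was above miR-103a-1-5p in 5 of the 6 libraries, with shares of both 5p arms of 83.8%, 81.8% and 87.1% in ΔTUT4/7 replicates 1, 2 and 3. The wild type replicates 1, 2 and 3 had shares of 86.4%, 72.7% and 28.6%. The share in wild type replicate 3 rested on 14 counts, with an exact 95% binomial interval of 8.39% to 58.1%. The mean share was 84.2 ± 2.67% in ΔTUT4/7 and 62.6 ± 30.2% in wild type cells (SD, n = 3 each; 2-sided exact permutation test, p = 0.3). The difference of 21.7 percentage points fell to 4.69 without wild type replicate 3. With 3 libraries per strain this test cannot go below 0.1, so it cannot tell whether the balance of the PANK2 and PANK3 hairpins changed. The wild type libraries differed among themselves beyond counting error, as the interval of wild type replicate 1, from 65.1% to 97.1%, lay above that of wild type replicate 3.

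Pooled over the libraries, the summed 3p arms had 19.9-fold the counts of the 5p arms together, and the miR-103a-3p row alone 10.2-fold. Neither is exact for miR-103a, since the sum includes the 3p arm of mir-107 and the row depends on how shared reads were divided. Both may also lack 3p reads aligned to the mir-103a-2 copy. Among the 200 hairpins with both arms tested under matching names, the median fold between the arms was 9.34, and 35.5% of them were more lopsided than the summed 3p arms and 48.0% more than the miR-103a-3p row. In single libraries there were 7.92, 6.0 and 10.3 counts of miR-103a-3p for each 5p count in ΔTUT4/7 replicates 1, 2 and 3. The numbers for wild type replicates 1, 2 and 3 were 10.8, 34.0 and 9.36. Wild type replicate 2, the most deeply sequenced library, stood apart with the fewest 5p counts for its guide. The log2 ratio of the 5p arms to miR-103a-3p was -2.98 ± 0.387 in ΔTUT4/7 and -3.92 ± 1.02 in wild type cells (SD, n = 3 each). They differed by 0.94 (2-sided exact permutation test, p = 0.2, where 0.1 is the smallest possible), and 0.35 without wild type replicate 2. Hence, although miR-103a-2-5p passed and miR-103a-3p did not, a difference between the responses of the 5p and 3p arms was not shown. It could not have passed 0.05 in this permutation test, and no other test of it was run. The log2 fold change of miR-103a-2-5p exceeded that of miR-103a-3p by 1.26, and a difference of at least this size between arms was found in 23 of the 200 hairpins, with a median of 0.57 in size over all 200. The 3p arm is shared by the PANK2 and PANK3 hairpins, so this is not a comparison within 1 hairpin.

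**Figure D4:**
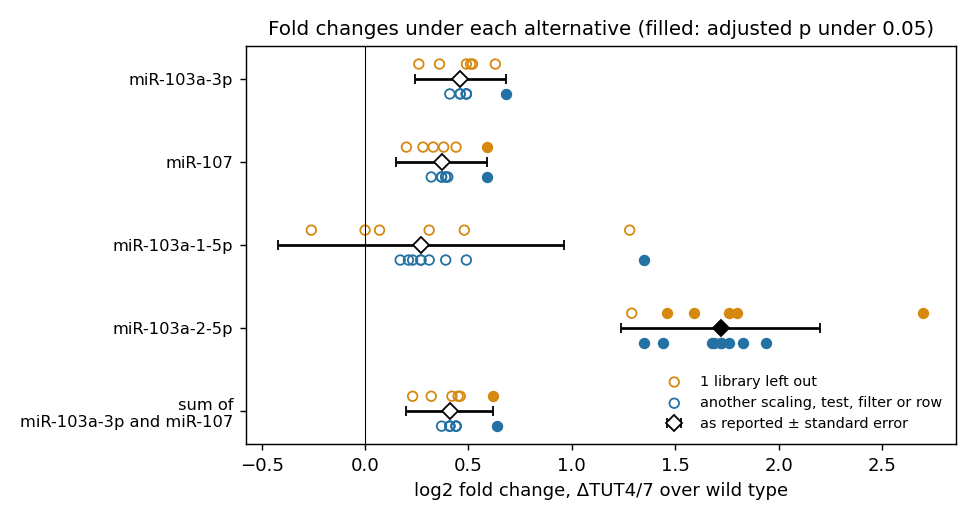
Log2 fold change of ΔTUT4/7 over wild type for the 4 arms and the summed 3p arms, as reported (diamonds, bars of 1 standard error), with 1 library left out (orange) and with another scaling, test, filter or row (blue), filled where the adjusted p is under 0.05. miR-103a-2-5p ranges from 1.29 to 2.70 and the summed 3p arms from 0.23 to 0.64, and the blue point at 1.35 drawn for each 5p arm is their sum.

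The start of the 3p arms resembles that of the miR-15 and miR-16 family, miRNAs known to restrain the cell cycle. The letters AGCAGC stand at position 1, 2 or 3 of 9 of the 1000 miRNAs on the mature strand, namely the members miR-103a-3p and miR-107 and 7 others. Some of them are shown with these letters in capitals, since they bring the seeds of the families out of register by 1 base.
hsa-miR-103a-3p: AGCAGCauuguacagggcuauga
hsa-miR-107: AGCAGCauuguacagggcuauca
hsa-miR-16-5p: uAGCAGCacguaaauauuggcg
hsa-miR-15b-5p: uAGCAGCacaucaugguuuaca
hsa-miR-503-5p: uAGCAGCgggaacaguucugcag
The 7 relatives made up 18.5% to 18.8% of each ΔTUT4/7 library and 24.9% to 29.3% of each wild type library, while miR-103a-3p and miR-107 together took 0.0108% to 0.0131% and 0.00632% to 0.0111%. Of the 7, 2 passed toward higher values, 3 toward lower and 2 did not pass, with a median log2 fold change of -0.07, beside 0.01 over all tested miRNAs. The 3 most abundant relatives fell, with log2 fold changes of -0.51 for miR-16-5p, -0.76 for miR-15b-5p and -0.56 for miR-15a-5p (edgeR adjusted p = 8.79e-04, 1.58e-04 and 0.00627). The fall of miR-15a-5p did not pass once let-7 and miR-98 were taken out of the totals, at -0.34 (edgeR adjusted p = 0.0656). miR-503-5p rose by 1.08 and miR-497-5p by 0.58 (edgeR adjusted p = 4.34e-05 and 0.00785). miR-103a-3p and miR-107, at 0.46 and 0.37, lay between these, and their difference from the relatives was not tested.

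**Figure D5:**
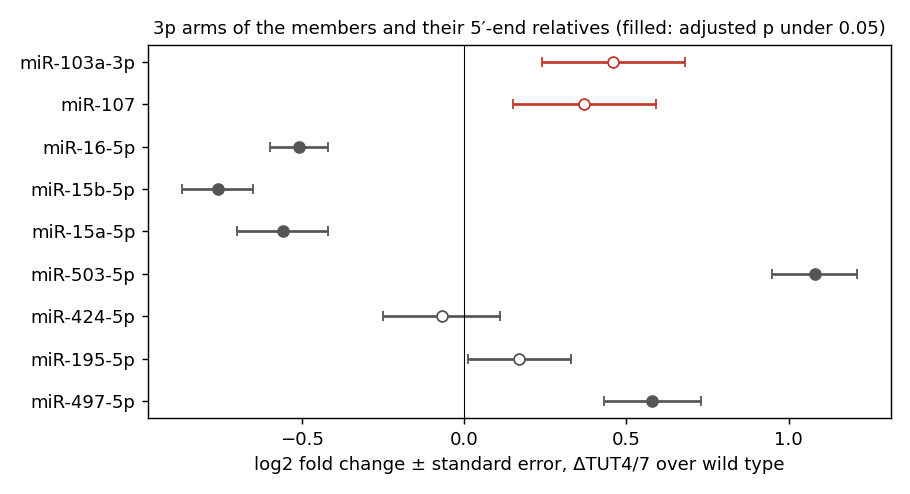
Log2 fold change of ΔTUT4/7 over wild type with bars of 1 standard error for miR-103a-3p and miR-107 (red) and the 7 other miRNAs with AGCAGC at position 1, 2 or 3 (grey), filled where the adjusted p is under 0.05. The points run from -0.76 for miR-15b-5p to 1.08 for miR-503-5p, with the members at 0.46 and 0.37.

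Like the members, 446 other tested arms lie in an intron of a protein coding gene on the same strand. Of these, 79 passed toward higher and 94 toward lower values, or 38.8% in all, with a median log2 fold change of -0.08. Among the 58 tested arms of hairpins on the study's group II list, 22 passed toward higher and 19 toward lower values, or 70.7% in all beside 45.2% of all tested miRNAs, with a median of 0.25. That list holds most of the let-7 hairpins, whereas the hairpins of miR-103a and miR-107 are not on it.

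By profile over the 6 libraries, the nearest of the 391 miRNAs with a mean of at least 10 CPM were named for each arm. The measure was the root mean square difference of log2(CPM + 1) after centring each miRNA on its own mean. miR-103a-3p was nearest to miR-671-3p, at 0.117, and to miR-107, at 0.119. Next came miR-92b-3p, at 0.130. miR-107 was nearest to miR-101-3p, at 0.0976, followed by miR-148a-5p, at 0.105, and miR-149-5p, at 0.119. The closest to miR-103a-2-5p were miR-3182, at 0.318, miR-484, at 0.349, and miR-194-3p, at 0.355. miR-103a-1-5p was nearest to miR-27b-5p, at 0.101, then to miR-188-5p, at 0.166, and miR-29b-3p, at 0.179, and it lay 0.953 away from the other 5p arm, miR-103a-2-5p. miR-103a-1-5p had only 3 to 10 counts per library. At its 0.377 to 2.30 CPM, the 1 added before the logarithm shrinks its differences between libraries. miR-103a-2-5p had 4 to 36 counts per library. Its mean of 4.26 CPM lay below the 10 CPM asked of the 391 miRNAs, and counting error weighs on its distances. The distances of both 5p arms are therefore not comparable with those of the 3p arms.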

How the data were processed

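Total RNA from 3 ΔTUT4/7 and 3 wild type HEK 293T libraries was prepared with Qiagen's QIAseq kit for miRNA and sequenced on an Illumina instrument. The authors cut reads to 18 nt, used Bowtie 1.0.0 for alignment to hg38 and quantified them on deduplicated miRBase mature miRNAs in Partek Flow 10.0.22. The deposited values are estimated counts from Partek's expectation-maximization model, written as whole numbers, with miR-16-5p rounded to 3 digits in the wild type libraries. Whether unique molecular identifiers were collapsed was not given in the sources used here, so counting intervals cover counting error only. A second deposited table holds the authors' own comparison and was not used.

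Counts were tested with edgeR 4.0.16 (estimateDisp, glmQLFit, glmQLFTest) in R 4.3.3, with strain as the only term, library sizes equal to the total count, normalization factors of 1 and a common dispersion of 0.0358. The test covered miRNAs whose highest count exceeded 7, and p-values were adjusted over all of them. Standard errors are the size of the log2 fold change divided by the square root of F. Shares and ratios were compared with 2-sided exact permutation tests over libraries (scipy 1.17.1, Python 3.11.15). Alternatives were TMM and RLE factors, library totals from which let-7 and miR-98 were removed, limma-trend on log2(CPM + 1) with limma 3.58.1, DESeq2 1.42.0, all miRNAs unfiltered, the replicate number as a block, each library left out, sums of arms that share their first 18 nt and, added after the data were seen, the sum of both 5p arms. The procedure was tested on simulated counts of 773 miRNAs for this comparison. There edgeR passed 64.6% of those changed 2-fold, 89.9% of those changed 4-fold and 0.687% of those left alone. These counts were drawn from the model that edgeR assumes, with library totals kept as they were, so the rates may be better than in real data. They cover miRNAs of all levels and are not rates for arms as rare as the 5p arms. Mature sequences of the table were read from hg38 with GENCODE release 44 for host genes. Of the 1000 names, 897 were found in the RefSeq table and all 897 had the same sequence. The members, lists and tests were chosen with earlier results of these data known. The miRNAs named are the 4 members, up to 4 of each list by abundance, and the 3 nearest profiles of each member. Also named are miR-497-5p and examples of pairs with a common start, chosen after their values were seen.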

Additional observations from a re-analysis of the deposited data

How the results depend on the processing

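Over 70 alternative values for the 5 results tested with edgeR, 62 kept their direction and their side of the threshold. The 22 values for the shares and the log2 ratio kept their direction, but their permutation tests cannot go below 0.1 and so say nothing of the threshold. With let-7 and miR-98 taken out of the library totals, log2 fold changes of 0.68 for miR-103a-3p, 0.59 for miR-107 and 0.64 for their sum passed (edgeR adjusted p = 0.0249, 0.042 and 0.0253), and 258 miRNAs were higher and 136 lower, or 65.5% higher in place of 51.5%. With both 5p arms summed, chosen after the data were seen, the sum passed at a log2 fold change of 1.35 (edgeR adjusted p = 0.0157), with most of its counts from miR-103a-2-5p, and miR-103a-1-5p on its own passed under none of the alternatives. With each library left out in turn, the log2 fold change ranged from 0.26 to 0.63 for miR-103a-3p, from 0.20 to 0.59 for miR-107 and from 0.23 to 0.62 for their sum. It ranged from -0.26, a reversal without wild type replicate 2, to 1.28 for miR-103a-1-5p and from 1.29 to 2.70 for miR-103a-2-5p. The difference in the share of miR-107 ranged from -3.34 to -0.762 percentage points and that in the share of miR-103a-2-5p from 4.69 to 33.6. The difference in the log2 ratio of 5p arms to miR-103a-3p ranged from 0.35 to 1.29. Beyond the library left out, the cause was not tested. Libraries with the same replicate number did not deviate together (correlations of -0.17, -0.162 and -0.251 over 391 miRNAs). A pairing by number was thus not seen, and whether such libraries were prepared together was not tested. With the replicate block, 349 miRNAs passed in place of 373, no member's call changed, and miR-103a-2-5p had a log2 fold change of 1.83 (edgeR adjusted p = 0.00177). Depth limits the 5p arms, which rest on 3 to 36 counts per library.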

Other observations

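The following pairs were looked at after the values were seen, and are given as values. Besides miR-103a, 10 miRNAs had an arm tested for each of copies 1 and 2. The log2 fold changes of the copies differed by 1.45 between miR-103a-2-5p and miR-103a-1-5p, with standard errors of 0.48 and 0.69. This difference was not tested. In the other 10 pairs the difference was between 0.16 and 5.98 in size, with a median of 0.70, and it was at least as large as that of miR-103a in 3 of them. These were let-7f, with 5.62 for let-7f-1-3p and 1.54 for let-7f-2-3p, miR-218, with 0.45 for miR-218-1-3p and -5.53 for miR-218-2-3p, and miR-19b, with 1.43 for miR-19b-1-5p and 3.36 for miR-19b-2-5p. The arms of miR-19b share their first 18 nt. The standard error was 1.56 for miR-218-2-3p, 0.82 for miR-19b-2-5p and 0.35 for let-7f-1-3p.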
